A study of Mus musculus with 6 samples.

Results

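The genes described here are 7 mouse CC chemokines that draw monocytes and macrophages (Ccl2, Ccl3, Ccl4, Ccl7, Ccl8, Ccl9 and Ccl12) and 3 receptors through which these cells sense chemokines (Ccr1, Ccr2 and Cx3cr1). They were chosen by name for that role, and all 10 are among the 23122 genes of the deposited count table. All 10 passed the filter on low counts. They were measured by bulk RNA sequencing of 6 tumors of CT26, a murine colorectal carcinoma line, each grown from 500000 cells under the skin of female BALB/c mice aged 6 to 8 weeks. Animals were assigned at random once tumors had reached 100 to 200 mm3. In 3 samples the mice had received TP-18, named in the series title as a dual antagonist of EP2 and EP4, by mouth at 50 mg/kg once daily for 3 weeks, and in the 3 others they had received vehicle over the same time. No genetic change is stated for either group. The labels do not state that every sample came from a separate mouse, so p-values measure at most the spread between these samples.

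EP2 and EP4 are receptors of prostaglandin E2, a lipid mediator that tumor cells and myeloid cells release. CC chemokines are small secreted proteins that bind G protein-coupled receptors on leukocytes and guide the cells along a gradient. Ccr2 is the receptor by which inflammatory monocytes leave the bone marrow and enter inflamed tissue and tumors, Ccr1 is carried by monocytes, macrophages and neutrophils, and Cx3cr1, the receptor of the membrane-bound chemokine Cx3cl1, marks patrolling monocytes and many tissue macrophages. Macrophages, fibroblasts and tumor cells can all be sources of the ligands. In bulk tumor RNA, fewer cells of a type and less RNA per cell cannot be told apart.

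Libraries held 35347034 to 36489081 counts in TP-18 tumors and 34813482 to 35163739 counts in vehicle tumors, so that depth differed little between groups. The lowest count of any member was 102 reads, for Ccl4 in vehicle 1. For each gene, levels across tumors are in CPM, its count divided by the TMM-adjusted library size. Tumors of the vehicle group differed from each other in these genes before any comparison with TP-18. Vehicle 3 stood at least 2-fold above the mean of vehicle 1 and vehicle 2 in 6 of the 10 members, while 5.45% of the 14189 tested genes did so. The other tumor that stood apart was vehicle 1, whose Cx3cr1 level was 8.26 times the mean of vehicle 2 and vehicle 3. Results are therefore given with all 6 tumors and also without these libraries, which were singled out after their values were seen. The count of vehicle 3 against its group is a description of the same libraries and no test of them.

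Ccl8 and Ccl12 are shown by sequence because they lie next to each other and carry the most alike upstream sequences available for these genes, yet had different patterns across the tumors. Both are on chromosome 11 of GRCm38, plus strand. In GENCODE M21 Ccl12 spans chr11:82101845-82103400 and Ccl8 spans chr11:82115185-82116799. The 250 bases before each start, chr11:82114935-82115184 for Ccl8 and chr11:82101595-82101844 for Ccl12 from RefSeq's GRCm38.p6 promoter table, read as follows 5′ to 3′, with the TATA box letters TATAAA in capitals.
Ccl8: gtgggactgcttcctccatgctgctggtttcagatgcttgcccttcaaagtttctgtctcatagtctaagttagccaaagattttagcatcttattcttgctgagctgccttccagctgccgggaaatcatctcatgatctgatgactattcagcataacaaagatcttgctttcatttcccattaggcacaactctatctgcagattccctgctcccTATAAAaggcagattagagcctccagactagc
Ccl12: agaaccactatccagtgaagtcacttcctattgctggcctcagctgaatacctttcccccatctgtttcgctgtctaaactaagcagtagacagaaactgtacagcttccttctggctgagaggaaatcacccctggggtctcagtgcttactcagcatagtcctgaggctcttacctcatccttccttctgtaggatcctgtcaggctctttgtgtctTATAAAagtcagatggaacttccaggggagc
In a local alignment of these sequences 89 of 146 columns were identical, over the stretch from 147 to 7 bases before the start in both genes. The next pair among the 7 members with an entry aligned over 30 columns. TATAAA, searched on both strands after the sequences had been seen, stood 32 to 27 bases before the start of Ccl8 and 31 to 26 bases before that of Ccl12, and 12.4% of 32851 promoters in the table hold it. Among the other members it was found in Ccl9 alone. The interferon-gamma activated site letters TTCNNNGAA occurred in 0 of the 7 sequences and in 7.02% of the table, and the interferon-stimulated response element in 0 of 7 and in 2.98%. The AP-1 letters TGANTCA occurred in Ccl9 and in 6.75% of the table, and the kappa B element in Ccl9, Ccr1 and Cx3cr1 and in 45.8% of the table. These are matches of letters in a window and say nothing of binding. Ccl2, Ccl4 and Ccl7 have no sequence shown.

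Across the 10 genes, TP-18 and vehicle tumors were not separated by the test over all 6 tumors. None of the 10 members passed an adjusted p of 0.05 in the quasi-likelihood F test of edgeR, adjusted by Benjamini-Hochberg over all tested genes, a threshold that 12.4% of the 14189 genes passed. At an unadjusted p under 0.05 there was 1 member, Ccr2, against 29.9% of all genes, and DESeq2 and limma-voom each called Ccr2 higher in TP-18 tumors, where DESeq2 called 18.0% of its tested genes (9.77% higher) and limma-voom 12.3% (7.25% higher). The log2 fold change of TP-18 over vehicle was positive in 8 of 10 members with a median of 0.52, beside a median of -0.0084 over all tested genes. Ccr2 was also the sole member whose tumors did not overlap between groups, with the TP-18 tumors above, whereas 35.8% of all tested genes did not overlap, 18.0% of them all with TP-18 above and 17.8% with TP-18 below. Without vehicle 3, 4 members passed with higher levels in TP-18 tumors, Ccl2, Ccl4, Ccl7 and Ccl8, against 6.4% of all genes called higher and 9.38% called in either direction. Without vehicle 1, Cx3cr1 alone passed, with higher levels in TP-18 tumors, against 15.3% of all genes called and 8.31% called higher. Both libraries were singled out by their levels in these genes, so the counts without them are a description and no test.

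**Figure D1:**
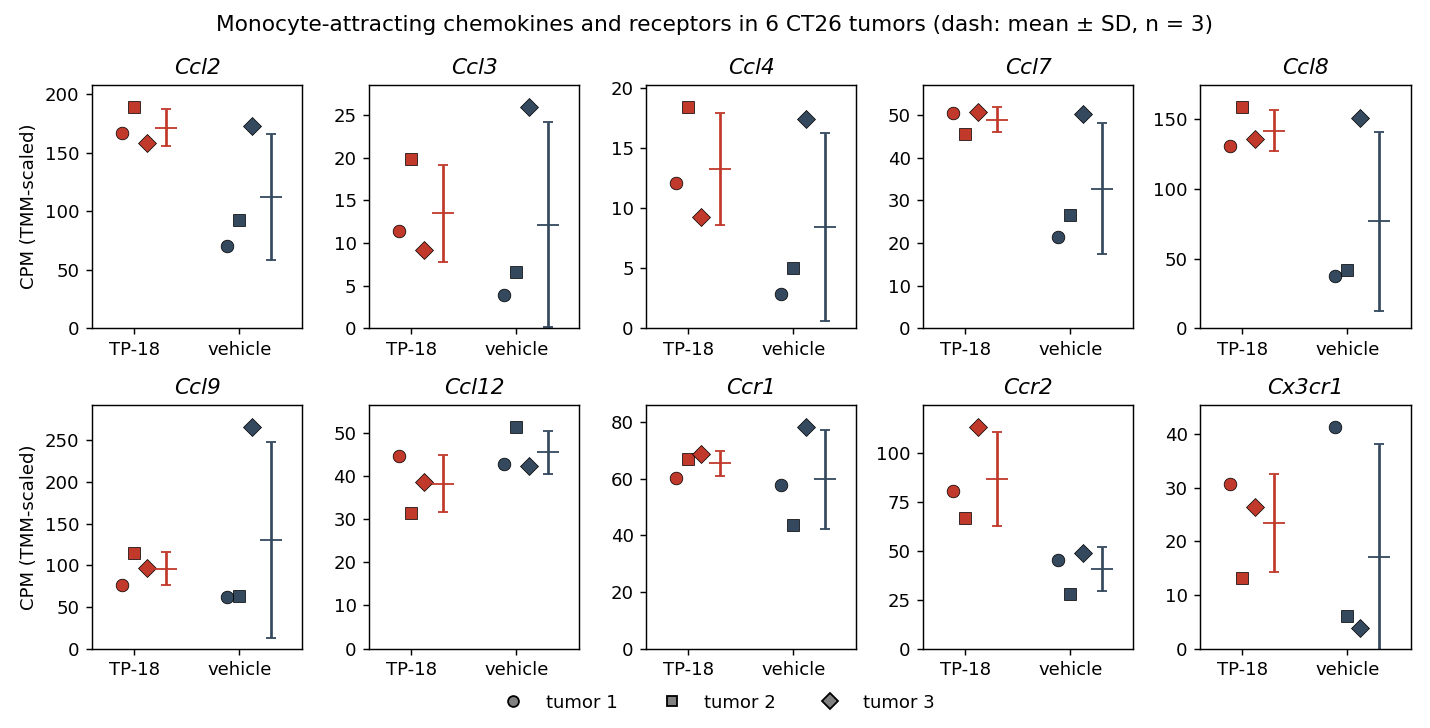
Level of each of the 10 genes in CPM on a linear axis that starts at 0, with 1 point per tumor (shape gives the replicate number), TP-18 left and vehicle right; the dash and bar give the mean ± SD of 3 tumors, cut off at 0 for Cx3cr1. Vehicle 3 lies within or above the TP-18 points in Ccl2, Ccl3, Ccl4, Ccl7, Ccl8 and Ccl9, and the Ccr2 points of the groups do not overlap.

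The first 4 ligands lie in a cluster on chromosome 11, where Ccl2 spans chr11:82035571-82037453 and Ccl7 spans chr11:82045712-82047525, both on the plus strand. Ccl2 is the principal ligand of Ccr2. It had 167.1, 188.9 and 158.0 CPM in TP-18 tumors, against 70.42, 92.73 and 172.8 CPM in vehicle tumors. The TP-18 tumors lay close together, vehicle 1 and vehicle 2 were below all of them, and vehicle 3 was inside their range. Means were 171 ± 15.9 CPM in TP-18 tumors and 112 ± 53.8 CPM in vehicle tumors (SD, n = 3 each). On the log2 scale the fold change was 0.61 ± 0.33 (SE), with a 95% interval of -0.21 to 1.44 and an adjusted p of 0.278 by edgeR. Without vehicle 3 the value was 1.08, with an adjusted p of 0.00641.

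Ccl7, a further ligand of Ccr2 and also of Ccr1, followed nearly the same profile. Its levels were 50.62, 45.57 and 50.71 CPM in TP-18 tumors, against 21.4, 26.55 and 50.28 CPM in vehicle tumors. Again vehicle 3 alone of its group reached the TP-18 level. Its log2 fold change was 0.58 ± 0.32 (SE; interval -0.19 to 1.35; edgeR adjusted p = 0.274) with all tumors and 1.04 without vehicle 3 (adjusted p = 0.00555).

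Ccl8 is, in the mouse, a ligand of Ccr8, a receptor of regulatory and type 2 helper T cells. It had 131.1, 158.7 and 135.5 CPM in TP-18 tumors, against 37.23, 42.2 and 151.0 CPM in vehicle tumors. Vehicle 1 and vehicle 2 lay far below the TP-18 tumors and vehicle 3 among them. The group means were 142 ± 14.8 CPM in TP-18 tumors and 76.8 ± 64.3 CPM in vehicle tumors (SD, n = 3 each). With all tumors the log2 fold change was 0.88 ± 0.59 (SE; interval -0.62 to 2.39; edgeR adjusted p = 0.379), and without vehicle 3 it was 1.85 (adjusted p = 0.00204), the widest difference of the 10 genes in that fit. Ccr8 itself, chosen after its values were seen, had 13, 34 and 49 reads in TP-18 tumors, against 9, 4 and 1 reads in vehicle tumors, and did not pass (log2 fold change 2.58, edgeR adjusted p = 0.0538).

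Ccl12, a mouse ligand of Ccr2 whose gene lies between those of Ccl7 and Ccl8, did not share this pattern. Its levels were 44.6, 31.45 and 38.66 CPM in TP-18 tumors, against 42.72, 51.29 and 42.32 CPM in vehicle tumors. The groups overlapped, and vehicle 3 was 0.90 times the mean of vehicle 1 and vehicle 2. Ccl12 had a log2 fold change of -0.25 ± 0.14 (SE; edgeR adjusted p = 0.273), and its interval of -0.57 to 0.07 excludes an increase of the size that Ccl2, Ccl7 and Ccl8 had without vehicle 3. In the fit without vehicle 3, Ccl12 stayed at -0.28 (adjusted p = 0.288).

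A second set of 3 ligands lies further along chromosome 11, with Ccl9 starting 1.54 Mb from Ccl2. Ccl9 spans chr11:83572919-83578636 on the minus strand, Ccl3 spans chr11:83647844-83649355 on the minus strand and Ccl4 spans chr11:83662584-83664683 on the plus strand. RefSeq starts the Ccl4 gene at position 83648624, inside Ccl3 on the other strand. The counting's use of strand is not given in the sources used here, so any reads of Ccl3 and Ccl4 counted in that overlap cannot be told apart. The Ccl4 length behind the deposited FPKM is 660 bases, equal to its exon bases in GENCODE, where it overlaps no other gene.

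Ccl3, a ligand of Ccr1, had 11.43, 19.84 and 9.153 CPM in TP-18 tumors, against 3.899, 6.584 and 25.95 CPM in vehicle tumors. Vehicle 3 was the highest of all 6 and the other vehicle tumors were the lowest. The log2 fold change was 0.15 ± 0.77 (SE; interval -1.79 to 2.09; edgeR adjusted p = 0.921), and 1.38 without vehicle 3 (adjusted p = 0.0784). Ccl4, a close relative of Ccl3 that macrophages and T cells secrete, had 12.12, 18.45 and 9.255 CPM in TP-18 tumors, against 2.903, 5.022 and 17.43 CPM in vehicle tumors. Here too vehicle 3 fell within the TP-18 range, with the other vehicle tumors below it. Its log2 fold change was 0.65 ± 0.70 (SE; interval -1.10 to 2.40; edgeR adjusted p = 0.581), and 1.76 without vehicle 3 (adjusted p = 0.0339).

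Ccl9, a ligand of Ccr1, had the widest range of the ligands in absolute CPM. It had 76.08, 115.1 and 96.45 CPM in TP-18 tumors, against 62.11, 63.02 and 265.5 CPM in vehicle tumors. Vehicle 3 was more than 2-fold above every other tumor, while vehicle 1 and vehicle 2 were below all TP-18 tumors. The sign of the fold change therefore turned on that tumor: -0.44 ± 0.66 (SE; interval -2.12 to 1.24; edgeR adjusted p = 0.700) with all 6, and 0.63 without vehicle 3 (adjusted p = 0.0549). Limma on log2(FPKM + 1), with all 6 tumors, gave 0.035. Over the 6 ligands other than Ccl12, vehicle 3 was 2.10 to 4.95 times the mean of vehicle 1 and vehicle 2.

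**Figure D2:**
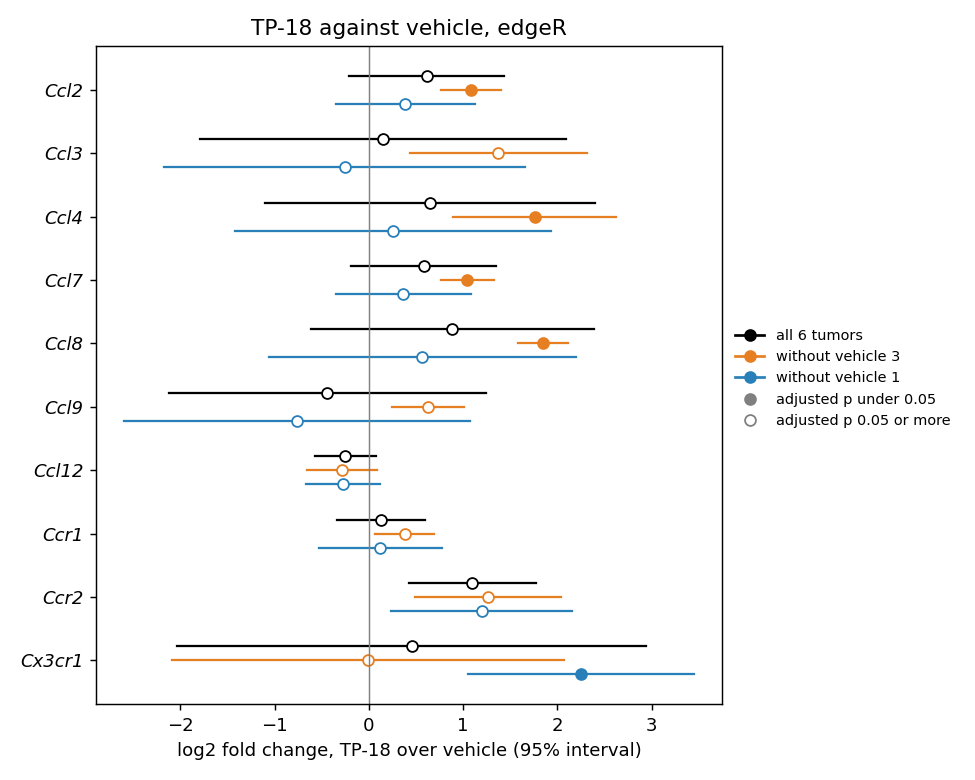
Log2 fold change of TP-18 over vehicle by edgeR for each gene, with its 95% interval, for all 6 tumors, without vehicle 3 and without vehicle 1; filled points have an adjusted p under 0.05. No point is filled with all 6 tumors, those of Ccl2, Ccl4, Ccl7 and Ccl8 are filled without vehicle 3, and that of Cx3cr1 without vehicle 1.

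Some genes beside the members in the chromosome 11 clusters also had their highest vehicle level in vehicle 3. Ccl11, which attracts eosinophils and lies between Ccl7 and Ccl12, had 1.61, 4.82 and 4.33 CPM in TP-18 tumors, against 0.455, 0.857 and 5.12 CPM in vehicle tumors, so that vehicle 3 was 7.80 times the mean of the other vehicle tumors. Ccl6, next to Ccl9, had 99.9, 211.4 and 144.4 CPM in TP-18 tumors, against 88.2, 149.2 and 697.9 CPM in vehicle tumors. Neither passed the test by edgeR (adjusted p = 0.634 for Ccl11 and 0.476 for Ccl6). In the outer genes Ccl1 and Ccl5, vehicle 3 was not the highest vehicle tumor. Ccl1, a ligand of Ccr8, had 45, 42 and 31 reads in TP-18 tumors, against 4, 0 and 1 reads in vehicle tumors, and was called higher (log2 fold change 4.31 ± 0.72 SE, edgeR adjusted p = 0.0112). Ccl5, a T cell product that binds Ccr1, had 20.6, 45.8 and 16.1 CPM in TP-18 tumors, against 6.38, 3.52 and 4.59 CPM in vehicle tumors, and was also called higher (2.51 ± 0.47 SE, adjusted p = 0.0260), but not without TP-18 1, vehicle 2 or vehicle 3 (adjusted p = 0.0548, 0.0952 and 0.0597).

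**Figure D3:**
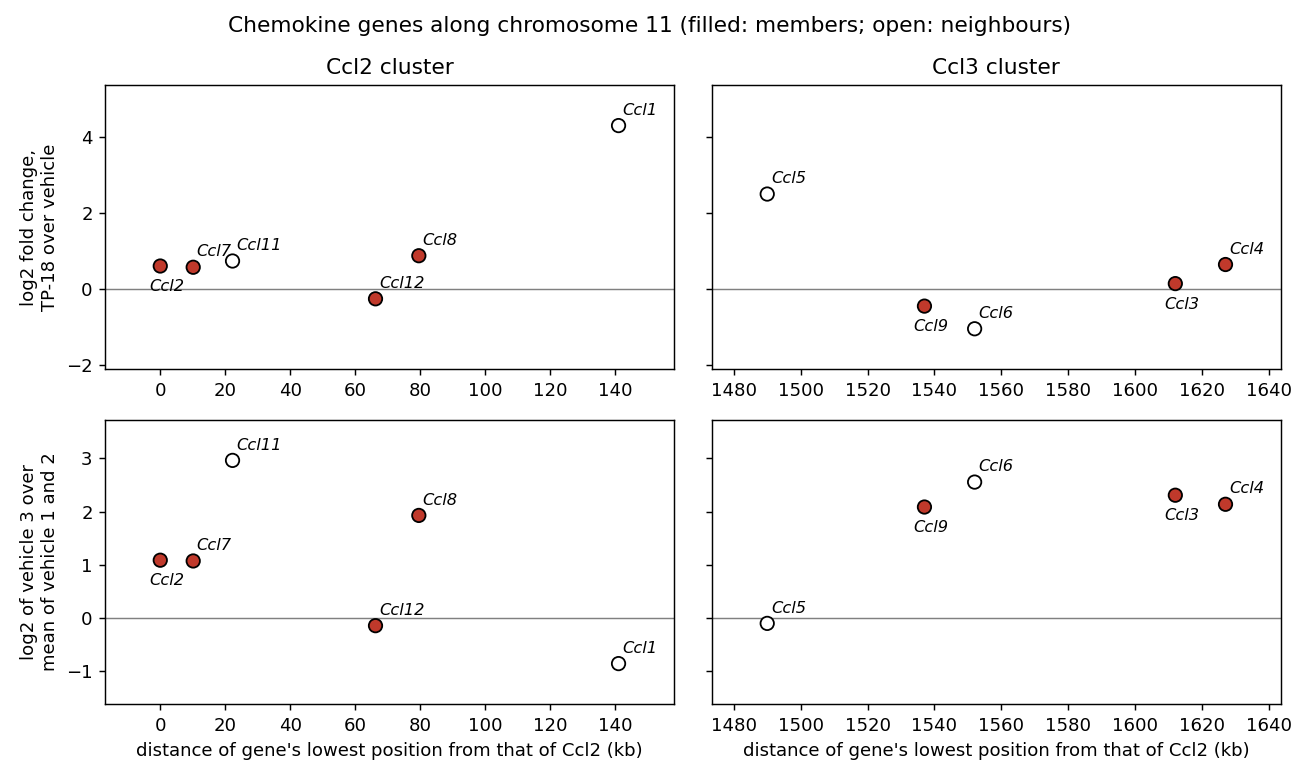
Members (filled) and neighbouring chemokine genes (open) in both chromosome 11 clusters, by distance of the gene's lowest position from that of Ccl2 in kilobases. The upper panels give the log2 fold change of TP-18 over vehicle and the lower panels the log2 ratio of vehicle 3 to the mean of vehicle 1 and vehicle 2, which is above 1 for Ccl2, Ccl7, Ccl8, Ccl9, Ccl3, Ccl4, Ccl11 and Ccl6 and below 0 for Ccl12, Ccl1 and Ccl5.

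Of the receptors, Ccr2 had the most separated groups. It spans chr9:124101950-124113557 on the plus strand. It had 80.44, 66.56 and 113.0 CPM in TP-18 tumors, against 44.97, 27.71 and 48.78 CPM in vehicle tumors. Every TP-18 tumor was above every vehicle tumor, and vehicle 3 did not stand out. Means were 86.7 ± 23.9 CPM in TP-18 tumors and 40.5 ± 11.2 CPM in vehicle tumors (SD, n = 3 each), a log2 fold change of 1.10 ± 0.28 (SE; interval 0.43 to 1.77). Ccr2 missed the threshold with an edgeR adjusted p of 0.0528. The size held across the other settings, at 0.86 to 1.26 when each tumor was left out in turn with adjusted p-values of 0.0641 to 0.123, while DESeq2 gave an adjusted p of 5.8e-05 and limma-voom 0.0335.

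Ccr1, at chr9:123962124-123968692 on the minus strand, had 60.33, 67.08 and 68.71 CPM in TP-18 tumors, against 57.69, 43.45 and 78.11 CPM in vehicle tumors. The TP-18 tumors lay inside the vehicle range. The log2 fold change was 0.13 ± 0.20 (SE; edgeR adjusted p = 0.701), with an interval of -0.34 to 0.60 that leaves out a doubling. Ccr1 also had one of the narrower vehicle spreads, 59.8 ± 17.4 CPM beside 65.4 ± 4.45 CPM in TP-18 tumors (SD, n = 3 each).

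Cx3cr1 lies at chr9:120048683-120068296 on the minus strand in RefSeq. GENCODE M21 gives it a longer span, chr9:119901616-120069879, where its exons overlap those of Gm33858, an antisense gene on the plus strand. As the counting's use of strand is not given, any reads counted in that overlap cannot be told apart. Cx3cr1 had 30.7, 13.22 and 26.48 CPM in TP-18 tumors, against 41.27, 6.094 and 3.904 CPM in vehicle tumors. Vehicle 1 was the highest tumor of all, the other vehicle tumors were the lowest, and TP-18 2 lay between. The log2 fold change was 0.45 ± 0.98 (SE; interval -2.04 to 2.94; edgeR adjusted p = 0.796), 2.25 without vehicle 1 (adjusted p = 0.0391) and -0.0088 without vehicle 3. Its ligand Cx3cl1, also chosen after its values were seen, had 1.67, 2.35 and 1.59 CPM in TP-18 tumors, against 1.195, 0.429 and 0.4997 CPM in vehicle tumors, with vehicle 1 again the highest of its group (log2 fold change 1.39, edgeR adjusted p = 0.0813).

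The spread between the 3 tumors of a group was compared as the coefficient of variation. It was larger in vehicle than in TP-18 tumors for 9 of 10 members, and for 66.0% of all tested genes. Its median over the members was 18.8% in TP-18 tumors and 65.9% in vehicle tumors, against 9.09% and 12.7% over all tested genes. Ccl7 (6.01%) and Ccr1 (6.80%) were below the median gene in TP-18 tumors, and Ccl12 was so in vehicle tumors. Ccl12 was also the gene with the smaller value in vehicle tumors, at 17.2% in TP-18 tumors and 11.2% in vehicle tumors, and for Ccr2 the values were nearly equal, at 27.5% in TP-18 tumors and 27.7% in vehicle tumors. Summed over the 10 members, levels ran from 664.5 to 724.8 CPM in TP-18 tumors, and from 364.7 to 856.0 CPM in vehicle tumors.

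Levels were ranked between genes by FPKM, which the authors scaled by gene length. In TP-18 tumors Ccl8 led with a mean of 291.1 FPKM, followed by Ccl2 at 223.0, Ccl12 at 75.0, Ccl7 at 64.2 and Ccl9 at 33.4 FPKM. Below these came Ccr1 at 24.3, Ccl4 at 21.1, Ccr2 at 19.3, Ccl3 at 17.8 and Cx3cr1 at 6.59 FPKM. Neighbours in this order overlapped between tumors for Ccl12 with Ccl7 and for Ccr1, Ccl4, Ccr2 and Ccl3 in a chain, and the other steps did not overlap. In vehicle tumors Ccl8 at 140.5 and Ccl2 at 130.7 FPKM were again the first, then Ccl12 at 80.6, Ccl9 at 40.4, Ccl7 at 38.5, Ccr1 at 20.03, Ccl3 at 14.3, Ccl4 at 11.9, Ccr2 at 8.16 and Cx3cr1 at 4.49 FPKM. There the ranges of all neighbours overlapped apart from Ccl7 and Ccr1. The place of Ccl8 rested on vehicle 3, since it had 72.8, 77.5 and 271.2 FPKM in vehicle 1, 2 and 3, where Ccl2 had 87.3, 107.9 and 196.8 FPKM and Ccl12 had 79.6, 89.8 and 72.5 FPKM. Without vehicle 3 the mean of Ccl8 was 75.1 FPKM, below Ccl2 at 97.6 FPKM and Ccl12 at 84.7 FPKM. Within each vehicle tumor Ccl2 was above Ccl12 and Ccl3 above Ccl4.

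Likeness between profiles was measured as the root mean square difference of centred log2 CPM over the 6 tumors, for all 45 pairs of members and as a description. Ccl2 and Ccl7, which lie side by side, were the closest at 0.130, followed by Ccl3 and Ccl4 at 0.243 and by Ccl4 and Ccl8 at 0.307. Cx3cr1 was the farthest from the ligands, at 1.92 from Ccl3 and 1.84 from Ccl4. Among 13141 protein-coding genes outside the set, those nearest to the mean profile of the members were Cytip, a cytohesin-binding protein of leukocytes, at 0.0846, Gab3, an adaptor protein, at 0.0896, and Samd15 at 0.104. Cytip had 70.5, 78.5 and 73.1 CPM in TP-18 tumors, against 37.9, 37.4 and 65.3 CPM in vehicle tumors, a shape with vehicle 3 near the TP-18 level as in the ligands. Gab3 and Samd15 were low, at no more than 1.01 CPM for Gab3 and 0.465 CPM for Samd15 in any tumor.

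**Figure D4:**
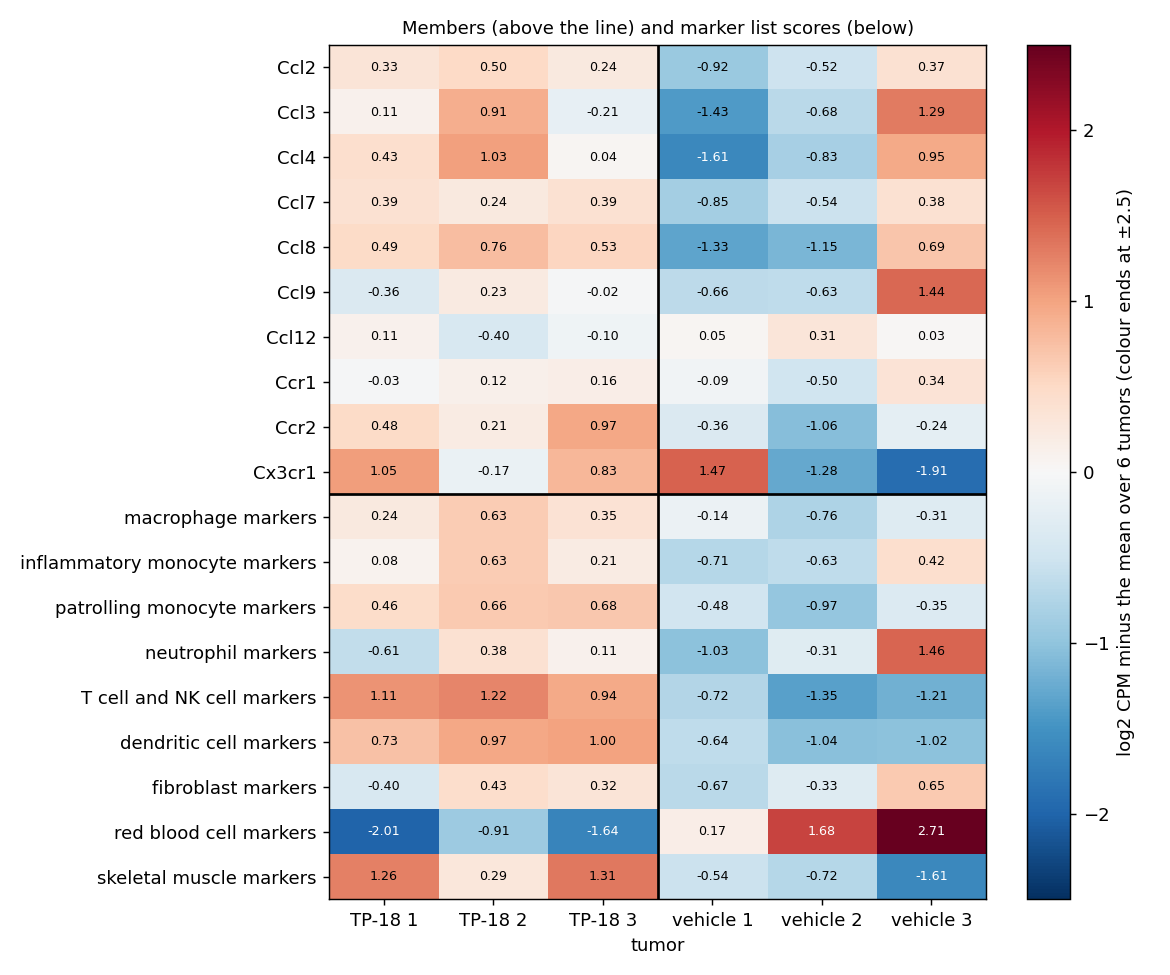
Log2 CPM of each member minus its mean over the 6 tumors (above the line) and the same for scores of marker lists, the mean log2 CPM of a list's tested genes (below), with TP-18 columns left of vehicle columns. In vehicle 3, Ccl9 is at 1.44 and the neutrophil score at 1.46, while the macrophage score is at -0.31 and Cx3cr1 at -1.91.

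Other CC and CX3C ligands, other CC receptors and atypical receptors were tested in the same fit where their counts passed the filter. Of the remaining CC and CX3C ligands 10 were tested, and 3 passed with higher levels in TP-18 tumors (Ccl1, Ccl5 and Ccl22) and none with lower levels, beside 7.09% of all genes called higher and 5.26% called lower. Ccl22, a dendritic cell chemokine, had a mean of 5.31 ± 1.01 CPM in TP-18 tumors and 1.99 ± 0.48 CPM in vehicle tumors (SD, n = 3 each; log2 fold change 1.42, edgeR adjusted p = 0.0178). The CC receptor Ccr9, which guides lymphocytes to the gut, was called higher, with 22, 61 and 94 reads in TP-18 tumors, against 3, 7 and 6 reads in vehicle tumors (log2 fold change 3.24, edgeR adjusted p = 0.0190). With single tumors left out, the number of all genes called was 746 without TP-18 1, 723 without TP-18 2, 499 without TP-18 3, 2239 without vehicle 1, 523 without vehicle 2 and 1367 without vehicle 3, against 1753 with all tumors. In these fits 1 (without vehicle 2) to 4 (without vehicle 1) of these ligands passed; Ccl22 and Ccr9 both missed the threshold without TP-18 2, TP-18 3 or vehicle 2, with adjusted p-values of 0.0555 to 0.0755. Of 3 tested atypical receptors (Ackr2, Ackr3 and Ccrl2), which do not signal through G proteins, none passed with all 6 tumors. In the fit without vehicle 1, Ackr3 alone of them passed. Ackr3 had 61.4, 62.3 and 58.9 CPM in TP-18 tumors, against 71.1, 108.8 and 148.3 CPM in vehicle tumors (log2 fold change -0.85, edgeR adjusted p = 0.0776).

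Of 20 genes that act below chemokine receptors, all tested, 10 passed with higher levels in TP-18 tumors and none with lower levels, and the list's median log2 fold change was 0.54. Dock2, an activator of Rac in leukocytes, had 55.7 ± 2.81 CPM in TP-18 tumors and 19.9 ± 3.25 CPM in vehicle tumors (SD, n = 3 each; log2 fold change 1.48, edgeR adjusted p = 0.00149). Rac2, the leukocyte Rac, was higher by 1.22 on the log2 scale (adjusted p = 0.00306) and Pik3cg, the kinase that G protein subunits activate, by 1.09 (adjusted p = 0.00327). These 3 genes passed in each of the fits that left out 1 tumor, in which 5 (without vehicle 2) to 10 of the list passed, with 6 without TP-18 2 or TP-18 3.

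Markers of the cells that carry these receptors were also tested. Of 12 inflammatory monocyte markers 4 passed with higher levels in TP-18 tumors (Ly6c1, Ms4a4c, Lyz2 and Itgam) and 1 with lower levels, Fn1, a matrix protein that fibroblasts and tumor cells make as well. Ms4a4c had 36.2 ± 3.58 CPM in TP-18 tumors and 10.8 ± 3.71 CPM in vehicle tumors (SD, n = 3 each; log2 fold change 1.75, edgeR adjusted p = 0.0106). Ly6c1 was called at 1.77, but it shares much of its sequence with Ly6c2, so its count is uncertain. Of 10 patrolling monocyte markers Itgal and Spn passed, both higher, and T cells carry both of these too. In the fits that left out 1 tumor, where 499 to 2239 genes in all were called against 1753 with all tumors, 2 of the inflammatory list passed without TP-18 2, TP-18 3 or vehicle 2, 3 without TP-18 1 and 7 without vehicle 3, and of the patrolling list 1 passed without each single TP-18 tumor and 5 without vehicle 1. Ms4a4c, Ly6c1 and Itgal passed in all 6 of these fits, whereas Lyz2, Itgam, Fn1 and Spn lost their call in 4 or 5 of them.

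Of 16 macrophage markers 6 passed with higher levels in TP-18 tumors and none with lower levels, with a median log2 fold change of 0.73. Adgre1, the F4/80 antigen, had 77.3, 86.5 and 89.6 CPM in TP-18 tumors, against 36.0, 26.6 and 35.9 CPM in vehicle tumors (log2 fold change 1.36 ± 0.13 SE, edgeR adjusted p = 0.00182). Mpeg1, a pore-forming protein of macrophages, was higher by 1.80 and Aif1, an actin-binding protein of macrophages, by 1.60. Of 8 genes for growth factors of monocytes and their receptors 2 passed, Csf2ra and Csf2rb2, both receptor chains and both higher in TP-18 tumors. With single tumors left out, 4 (without TP-18 3) to 9 (without vehicle 1) macrophage markers passed, Adgre1, Mpeg1 and Aif1 in every fit. Csf2ra passed in these fits without vehicle 1 alone and Csf2rb2 without TP-18 1 alone.

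Set against the macrophage score of the same tumor, 8 of the 10 members overlapped between TP-18 and vehicle tumors. The difference of member minus score, TP-18 minus vehicle, was negative for 6 of the 10 genes. Ccl12 was at -1.55 ± 0.45 in TP-18 tumors and -0.48 ± 0.47 in vehicle tumors on the log2 scale (SD, n = 3 each), a difference of -1.07. Ccr1 was at -0.77 ± 0.16 in TP-18 tumors and -0.12 ± 0.31 in vehicle tumors, a difference of -0.65. These were the members whose groups did not overlap on this scale, both with p = 0.1 in a two-sided exact permutation test, the smallest p that 20 assignments of 3 against 3 allow, before any adjustment over the 10 genes. Ccr2 differed by 0.29 (exact p = 0.5), Ccl2 by -0.10 (exact p = 0.9) and Ccl8 by 0.37 (exact p = 0.7). The score itself differed between groups, at 6.63 to 7.02 in TP-18 tumors and 5.63 to 6.25 in vehicle tumors, a difference of 0.81. A member that did not change is therefore lower on this scale. The share of all tested genes whose groups do not overlap on it was not computed.

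**Figure D5:**
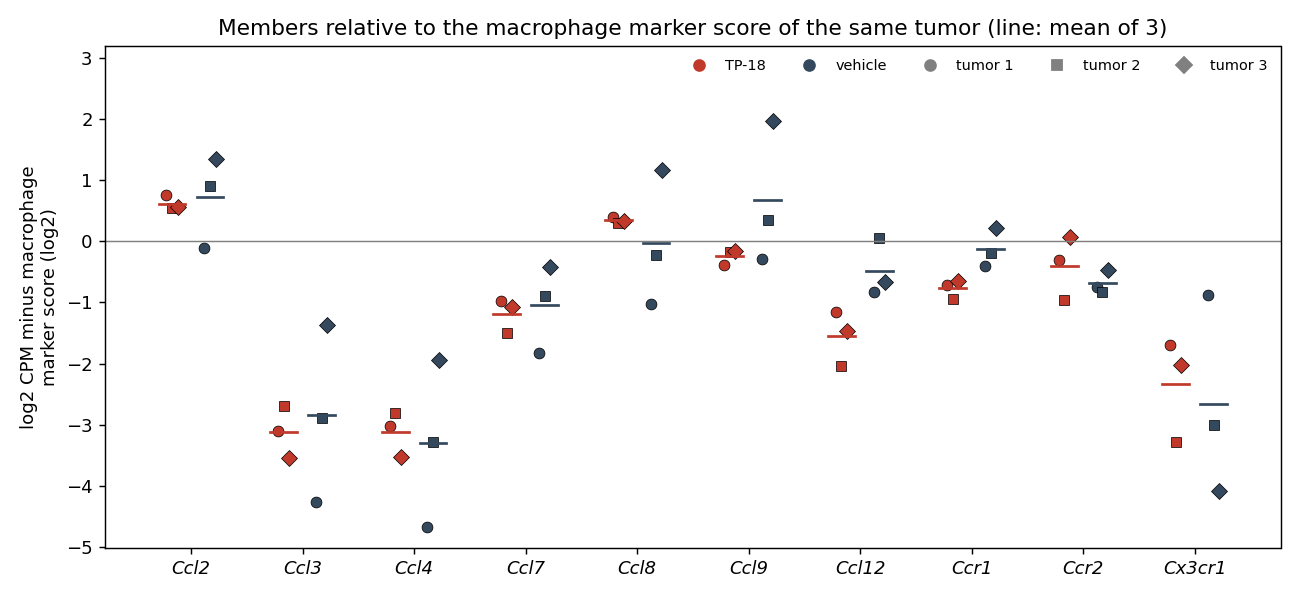
Log2 CPM of each member minus the macrophage marker score of the same tumor (log2), with 1 point per tumor, TP-18 left of vehicle, and a line at the mean of 3. Ccl12 and Ccr1 are lower in every TP-18 tumor than in every vehicle tumor, and vehicle 3 is the highest tumor in Ccl2, Ccl3, Ccl4, Ccl7, Ccl8 and Ccl9.

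Markers of other cell types moved with the tumors that stood apart. In vehicle 3 the neutrophil genes S100a8, S100a9 and Cxcr2, named after their values were seen, were 8.96, 8.73 and 12.1 times the mean of vehicle 1 and vehicle 2, whereas Ly6g, a defining neutrophil gene, had 1 to 7 reads in TP-18 tumors and 1 to 3 reads in vehicle tumors. Summed over the neutrophil list, levels were 79.8 to 162.5 CPM in TP-18 tumors and 58.8 to 382.3 CPM in vehicle tumors, with none of 9 tested genes past the threshold, and 1 without vehicle 3. Fibroblast markers, summed, were 1214 to 2430 CPM in TP-18 tumors and 1174 to 4595 CPM in vehicle tumors, with vehicle 3 again the highest and none of 8 tested genes called, and 1 without vehicle 3. Red blood cell markers, summed, were 66.3, 182.7 and 394.7 CPM in vehicle 1, 2 and 3, against 14.8 to 33.9 CPM in TP-18 tumors. For all 5 tested genes of that list vehicle 3 was the highest vehicle tumor. Inflammatory monocyte markers were also highest in vehicle 3 of the vehicle tumors for 9 of 12 genes, beside 34.8% of all tested genes. Among them Vcan was at 9.55, F13a1 at 4.31, Chil3 at 3.98 and Ly6c2 at 2.63 times the mean of vehicle 1 and vehicle 2, named after their values were seen. Summed, this list was at 5771 to 7026 CPM in TP-18 tumors and 6815 to 8868 CPM in vehicle tumors. Most of the sum was Fn1, with a mean of 4116 CPM in TP-18 tumors and 6569 CPM in vehicle tumors. The list's score went the other way, at 6.181 to 6.725 in TP-18 tumors and 5.386, 5.471 and 6.522 in vehicle 1, 2 and 3. Its median log2 fold change was 0.74. In vehicle 1, the tumor with high Cx3cr1, 10 of 16 macrophage markers were at their highest of the vehicle group. So were 8 of 12 T cell and NK cell markers and 6 of 8 skeletal muscle markers. Of 10 patrolling monocyte markers, 4 were highest in vehicle 1 and 5 in vehicle 3, where Cx3cr1 was lowest. The share of all tested genes highest in vehicle 1 was not computed. Csf1r, the receptor of the macrophage growth factor and likewise named afterwards, had 174.7, 200.5 and 194.4 CPM in TP-18 tumors, against 162.6, 96.5 and 93.8 CPM in vehicle tumors. The part of these markers in the levels of the ligands and of Cx3cr1 was not tested.

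Other lists held genes called between the groups. T cell and NK cell markers, summed, were 230.6 to 375.7 CPM in TP-18 tumors and 76.0 to 132.5 CPM in vehicle tumors, with 10 of 12 called higher. Dendritic cell markers, summed, were 223.3 to 371.4 CPM in TP-18 tumors and 156.6 to 232.7 CPM in vehicle tumors, with 6 of 10 called higher. These sums overlapped between groups, but most of each was Bst2, named after its values were seen. Bst2 had 186.5 to 339.1 CPM in TP-18 tumors and 141.4 to 222.1 CPM in vehicle tumors. The dendritic score, a mean of log2 CPM, did not overlap, at 1.93 to 2.19 in TP-18 tumors and 0.16 to 0.55 in vehicle tumors. Skeletal muscle markers were 50.9 to 101.0 CPM in TP-18 tumors and 10.5 to 25.2 CPM in vehicle tumors, with 5 of 8 called higher, and red blood cell markers 14.8 to 33.9 CPM in TP-18 tumors and 66.3 to 394.7 CPM in vehicle tumors, with 4 of 5 called lower. With single tumors left out, 5 (without TP-18 2 or TP-18 3) to 10 T cell and NK cell markers, 2 (without TP-18 3) to 6 dendritic cell markers, 2 (without TP-18 1, TP-18 3 or vehicle 2) to 6 muscle markers and 0 (without each single TP-18 tumor or vehicle 2) to 5 red blood cell markers passed. None of 6 endothelial markers passed. The part of these differences in the results for Ccr2 and the other members was not tested. The epithelial gene Epcam had 7, 8 and 24 reads in TP-18 tumors, against 0, 0 and 2 reads in vehicle tumors, while Krt20 had a mean of 203 CPM in TP-18 tumors and 306.7 CPM in vehicle tumors and was the 1 of 3 tested epithelial genes called, lower in TP-18 tumors, though not without TP-18 1, TP-18 3 or vehicle 2. Of the receptors that TP-18 is described as blocking, Ptger4 (EP4) had 7.21, 5.89 and 9.85 CPM in TP-18 tumors, against 2.65, 1.78 and 2.28 CPM in vehicle tumors (log2 fold change 1.77, edgeR adjusted p = 0.00770), and Ptger2 (EP2) did not pass (1.62, adjusted p = 0.105).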

How the data were processed

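The deposited counts are whole numbers of reads per gene, not normalized, for 3 TP-18 and 3 vehicle tumors, grouped by the labels. The deposited FPKM values were made by the authors from those counts, the gene length and the library total, which was checked in 15884 genes to a relative tolerance of 0.001. Per the submitters' processing notes fastp, HISAT2, HTSeq and GRCm38 were used; the sources used here do not give versions, strand or the treatment of multiply mapped reads. RNA was extracted with TRIzol and libraries made with the VAHTS Universal V6 kit, per the labels' protocols.

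Counts were tested in R 4.3.3 with edgeR 4.0.16: filterByExpr (minimum count 10, minimum total 15), TMM scaling, group as the sole term, and the two-sided robust quasi-likelihood F test with Benjamini-Hochberg adjustment over 14189 genes at 0.05. Log2 fold changes are TP-18 over vehicle with a prior count of 0.125. Scores and profiles use log2 CPM with a prior count of 2. Single log2 values were compared by exact permutation. The procedure was tested on simulated data. Alternatives used DESeq2 1.42.0, limma 3.58.1 (voom, or log2 FPKM with pseudocounts of 1 and 0.1), other scalings and filters, a replicate block and leaving out each tumor.

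The members, the 16 companion gene lists and the tests were chosen with earlier results of these data known. Named genes were all members, up to 4 called genes of each list by smallest adjusted p (up to 2 by smallest p where none was called), the 3 genes nearest in profile, neighbours in the clusters, Ptger2 and Ptger4; not all of these are described. Any gene outside this rule was named after its values were seen, Ccr8, Cx3cl1, Epcam, S100a8, S100a9, Cxcr2, Ly6g, Csf1r, Vcan, F13a1, Chil3 and Ly6c2 among them. Ccl26 and Ackr1 are not analysed here. The list of other CC receptors is not reported here as a count. PCR copies cannot be recognized in these counts.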

Additional observations from a re-analysis of the deposited data

How the results depend on the processing

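With all 6 tumors and edgeR, 0 of 10 members passed. The count was 1, Ccr2, under non-robust moderation, the replicate block, DESeq2, limma-voom, log2(FPKM + 1), log2(FPKM + 0.1) and an adjusted p under 0.10, and it ran from 0 to 4 when each tumor was left out in turn, with 4 without vehicle 3 and 1 without vehicle 1. Of all genes, 1753 passed, against 778 with the replicate block, 2704 by DESeq2, 846 with log2(FPKM + 1) without a filter, 3022 at an adjusted p under 0.10 and 693 with a minimum of 2-fold, and 499 to 2239 when each tumor was left out. The replicate numbers do not pair the tumors: deviations of tumors with equal numbers correlated at 0.242, -0.0834 and -0.0364, and TP-18 1 alone correlated best with its own number. Under the replicate block Ccr2 had an adjusted p of 0.0113. The sign of the log2 fold change was not stable for Ccl9, which was 0.035 with log2(FPKM + 1), filtered or not, and 0.043 with log2(FPKM + 0.1). Leaving out each tumor, it ran from -0.76 to 0.63 for Ccl9, from -0.26 to 1.38 for Ccl3, from -0.047 to 0.38 for Ccr1 and from -0.0088 to 2.25 for Cx3cr1. Relative to the inflammatory monocyte score in place of the macrophage score, Ccl2 differed by 0.10 and Ccl7 by 0.063. Leaving out each tumor, differences from the macrophage score ran from -0.51 to 0.22 for Ccl2, from -0.98 to 0.46 for Ccl3, from -0.50 to 0.86 for Ccl4, from -0.53 to 0.17 for Ccl7, from -0.12 to 0.97 for Ccl8 and from -0.39 to 1.22 for Cx3cr1. Among the remaining values under alternatives, 150 member fold changes kept their sign and their side of the threshold, 11 kept their sign and newly passed, and 81 relative values kept their sign, while 87 list counts moved by over 1.5 times and 217 did not. FPKM, which is not TMM-scaled, gave a median log2 fold change over all tested genes of 0.089 with a pseudocount of 1 and 0.132 with 0.1, against -0.0084 with edgeR, and the median shift per gene was 0.13 and 0.14. Fits with 2 tumors in a group differ in sample number; beyond that the cause was not tested.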
